A study of Mus musculus with 12 samples.

Results

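The comparison is that of G1-phase cells of the mouse intra-aortic clusters at E11.5 with the same cells at E10.5. Its members are all genes that the authors could test in their table of these 2 groups, 12953 of the 24138 genes listed. Another 11178 genes had too few reads for a test and 7 had too many. The clusters are groups of round cells that adhere to the wall of the embryonic aorta. Haemogenic endothelium of the aorta gives rise to them, and haematopoietic stem and progenitor cells mature there before they move to the fetal liver. Macrophages of earlier origin are also present around the aorta at these ages, as are mesenchyme, somite and kidney-forming tissue of the aorta-gonad-mesonephros (AGM) region and the neural tube nearby.

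Both groups were C57BL/6 mouse embryos, 3 samples at E10.5 and 3 at E11.5. Cells were sorted from the AGM as negative for SSEA-1, a marker used to keep out primordial germ cells, and positive for CD31, a protein of endothelial cells, and for CD117, the Kit receptor of progenitors. All 6 samples came from Fucci Red animals, in which the fluorescent mKO2 reporter accumulates in G1, and mKO2-positive cells were taken. A reporter strain difference therefore does not separate the 2 ages. The labels name no separate litters. S/G2/M cells, sorted as mAG-positive from Fucci Green animals of each age, served as a second set of 6 samples. RNA was sequenced as paired reads of 100 bases.

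The deposited values are FPKM, fragment counts scaled by the authors to gene length and library depth, so levels can be compared between genes. A single value was given for each gene and group. The values of the 3 samples, their SD and their depth are therefore not known here, and no test could be run on samples. A gene is said to have risen or fallen when its q was under 0.05 in the authors' deposited table, which holds Cuffdiff's p-values adjusted over all genes tested. The sources do not state if that test took the 3 samples apart, and its p-values may reflect technical spread alone.

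With age 577 of 12953 tested genes changed (4.45%). Of these, 389 rose (3% of tested) and 188 fell (1.45% of tested). A gene that rose did so by a median of 4.32-fold over the 353 genes above 0 at both ages, and a gene that fell by a median of 4.34-fold over 158 genes. The smallest called rise was 2.09-fold and the smallest called fall 2.18-fold. Calls of rises concentrated in abundant genes. Of genes under 5 FPKM in the higher group 0.917% rose and 0.917% fell. From 5 to under 20 FPKM the shares were 1.68% and 1.41%, from 20 to under 100 FPKM 6.32% and 1.87%, and at 100 FPKM or more 7.67% and 2.47%. The median log2 fold of all tested genes was 0.02. Over all called genes, the 389 rises lay at higher levels than the 188 falls, with a median of 31.0 FPKM in the higher group against 16.6 FPKM. The plot by age shows the tested genes that were above 0 at both ages.

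**Figure D1:**
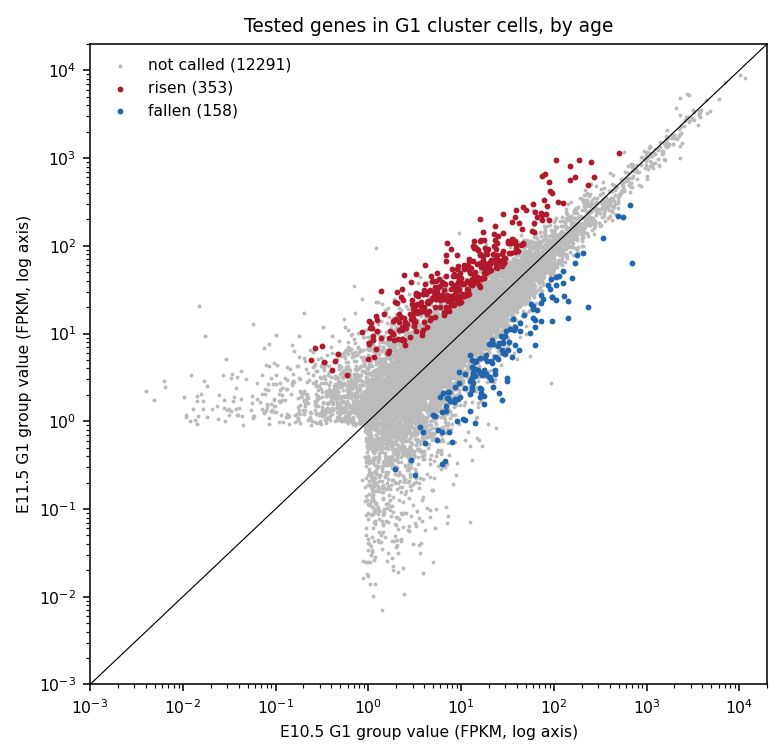
Authors' group values (FPKM, log axes) of tested genes above 0 at both ages in G1 cells, E10.5 on the horizontal and E11.5 on the vertical axis. Red points are the 353 risen and blue points the 158 fallen genes at q under 0.05 in the authors' deposited table, grey points are genes not called, and the line marks equal values.

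The labelled cell identity was checked against markers. Pecam1, which encodes CD31, had 38.1 FPKM at E10.5 against 113 FPKM at E11.5 and rose. Kit, which encodes CD117, had 14.4 and 17.1 FPKM and was not called. Fut4, which makes the SSEA-1 epitope, had 3.30 and 3.90 FPKM. All 7 endothelial markers were present, with a summed level of 450.1 FPKM at E10.5 against 831 FPKM at E11.5. The 6 haematopoietic markers summed to 45.6 and 181 FPKM, with 4 higher at E11.5 and 3 of them risen. Itga2b, with 3.95 and 1.71 FPKM and no call, and Gfi1, with 0.636 and 0.255 FPKM and too few reads for a test, were lower. Markers of other cell types were measured in the same samples. The sum of 10 macrophage markers was 204 FPKM at E10.5 against 1505 FPKM at E11.5, 8 of the 10 rose, and none was at 0 at either age. For 7 erythroid markers the sums were 14243 and 11879 FPKM, with no gene called by Cuffdiff's q. Of these 7, 2 had p under 0.05 unadjusted, by the authors' deposited table. For 6 mesenchymal markers they were 116 and 38.7 FPKM, and 2 fell. For 5 neuronal markers they were 279.6 and 89.3 FPKM, and 2 fell. In such bulk samples, fewer cells of a type and less RNA per cell cannot be told apart. The part of macrophages, mesenchyme and neurons in the results on their genes was not tested.

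Genes of the lysosome, where phagocytes degrade what they take up, were higher at E11.5. Of 41 tested genes, 18 rose (43.9%, against 3% of all tested genes), none fell, and 40 were higher, with a median log2 fold of 1.43. The cysteine protease gene Ctss, whose product cuts proteins in the endosomes of antigen-presenting cells, had 23 FPKM at E10.5 against 167 FPKM at E11.5, a 7.25-fold rise. Ctsb, another cysteine cathepsin, rose 5.89-fold to 277 FPKM. Ctsd, the main aspartic protease of lysosomes on chromosome 7 (142375916 to 142387870, mm10), rose from 96.3 to 405 FPKM. Lgmn, an asparagine-specific protease that activates cathepsins, was chosen after its values were seen and had 17.5 and 145 FPKM, the highest fold of the list at 8.30. The folds of 2 lysosomal membrane proteins were smaller. Lamp1 rose 2.45-fold from 125 FPKM and Lamp2 rose 2.98-fold from 61.5 FPKM. Psap, the precursor of the activators of sphingolipid hydrolases, rose 3.16-fold, and Grn, which encodes progranulin, rose 5.17-fold to 259 FPKM. In every one of these genes the level at E11.5 was at least 2.45 times that at E10.5. The summed macrophage markers over the same samples rose with these genes, and their part in this result was not tested.

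Lipid and iron handling genes were also higher. Of 29 tested lipid handling genes 9 rose (31%, against 3% of all tested genes) and none fell (median log2 fold 1.59). Apoe, the apolipoprotein of cholesterol efflux on chromosome 7 (19696244 to 19699188), had 106 FPKM at E10.5 against 939 FPKM at E11.5. It rose 8.86-fold and was the most abundant of the 9. Abca1, the pump that loads cholesterol onto apolipoproteins, rose from 8.89 to 45.2 FPKM, and its relative Abcg1 rose 5.38-fold. Ptgs1, the constitutive cyclooxygenase, rose from 22.9 to 99.9 FPKM. By contrast none of 23 cholesterol synthesis genes was called by Cuffdiff's q, although 18 were lower and 6 had p under 0.05 unadjusted, by the authors' deposited table. Of 18 iron and haem handling genes 5 rose (27.8%). Hmox1, which degrades haem, had 42.2 and 181 FPKM. Slc40a1, the iron exporter ferroportin, rose 8.56-fold to 28.0 FPKM. Slc11a1, which moves iron and manganese out of phagosomes and lies on chromosome 1 (74375203 to 74386051), rose from 2.29 to 32.1 FPKM (14-fold). Blvrb, which reduces biliverdin, rose 5.04-fold, and Trf, which encodes transferrin, rose 5.53-fold. The 25 tested erythroid genes had no call, with 2 at an unadjusted p under 0.05. Hba-x, an embryonic globin, had 7048 and 7393 FPKM, although globin genes share sequence and their values are uncertain.

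The machinery of the phagocyte oxidase and leukocyte actin had, after the macrophage markers (65.5%), the second highest share of risen members among the 46 lists. Of 28 tested genes 17 rose (60.7%, against 3% of all tested genes), none fell and all 28 were higher. Ncf1, the cytosolic organiser of the oxidase, rose 5-fold, from 10.8 to 54.1 FPKM. Cyba, a membrane subunit, rose from 19.4 to 91.9 FPKM. Rac2, the GTPase of blood cells that activates the oxidase, had 18.9 FPKM at E10.5 against 79.8 FPKM at E11.5. Coro1a, an actin regulator of leukocytes, had 62.5 and 241 FPKM. Arhgdib, an inhibitor of small GTPases in blood cells, reached the highest level of the list, 569 FPKM, from 151 FPKM. Nckap1l, the haematopoietic subunit of the WAVE complex, rose 9.09-fold, from 5.44 to 49.5 FPKM, the highest fold of the list.

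Of 29 genes for leukocyte receptor signalling 14 rose (48.3%, against 3% of all tested genes), none fell and all were higher (median log2 fold 2.39). Ptprc, which encodes the phosphatase CD45, had 4.57 and 30.4 FPKM. Fyb, an adaptor of integrin activation, rose 9.51-fold to 45.6 FPKM. Sirpa, an inhibitory receptor of myeloid cells that binds CD47, rose from 13.3 to 99.0 FPKM. Lyn, a Src-family kinase, and Lcp2, an adaptor, rose 3.20-fold and 4.17-fold. The largest called rise among genes of at least 5 FPKM that were above 0 at both ages was that of Plcb2 (chromosome 2, 118707517 to 118728438), a phospholipase downstream of chemoattractant receptors. It rose 25.4-fold, from 0.269 to 6.83 FPKM. Csf2ra, the binding subunit of the GM-CSF receptor, rose 22.2-fold, from 1.38 to 30.6 FPKM. Csf2rb2, which encodes a second beta chain near-identical to Csf2rb, had 0.315 and 7.21 FPKM, and reads shared between these copies make its value uncertain.

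Among 26 pattern recognition genes 6 rose (23.1%, against 3% of all tested genes) and all 26 were higher. Tlr7 and Tlr13, which sense RNA in endosomes, rose from 3.28 to 28.7 and from 1.06 to 13.2 FPKM. Tlr4, the receptor of bacterial lipopolysaccharide, rose from 2.42 to 14.9 FPKM. Cd180, a relative of Tlr4, and Ly86, the secreted partner of Cd180, rose together 5.19-fold and 5.68-fold, from 25.1 and 37.8 FPKM. Of 42 interferon and cytokine signalling genes 10 rose (23.8%). Il4ra, Il17ra and Tnfrsf1b, receptors of interleukin 4, interleukin 17 and tumour necrosis factor, reached 26, 42.4 and 28.2 FPKM at E11.5 from 4.99, 9.49 and 3.87 FPKM. Ifnar2, a chain of the interferon alpha receptor, rose 4.94-fold to 139 FPKM.

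Antigen presentation genes rose in 4 of 17 cases (23.5%, against 3% of all tested genes). B2m, the light chain of class I molecules, had 251 and 907 FPKM. Psmb9, an inducible subunit of the immunoproteasome, rose 9-fold, from 4.12 to 37.1 FPKM, and Psme1, a proteasome activator, rose 2.63-fold. Erap1, which trims peptides, rose from 2.33 to 11.3 FPKM. Of 32 integrins and adhesion genes 9 rose (28.1%) and none fell. Itgal and Itgam, the alpha chains of the leukocyte integrins LFA-1 and Mac-1, rose 12.8-fold and 13.2-fold. Their common beta chain Itgb2 rose 5.33-fold, from 4.39 to 23.4 FPKM. Itga4, the alpha chain of VLA-4, rose from 5.83 to 26.2 FPKM. Selplg, the ligand of P-selectin, rose 7.82-fold. The 4 granulocyte markers summed to 21.3 and 125 FPKM in the same samples, and their part in these rises was not tested. Mpo, the peroxidase of neutrophil and monocyte granules, had 13.9 and 94.8 FPKM and rose. Csf3r, another of these markers, rose 11.3-fold, from 1.49 to 16.8 FPKM. The remaining 2, named after their values were seen, were Prtn3, with 5.96 and 13.4 FPKM and no call, and Elane, at 0 at both ages.

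**Figure D2:**
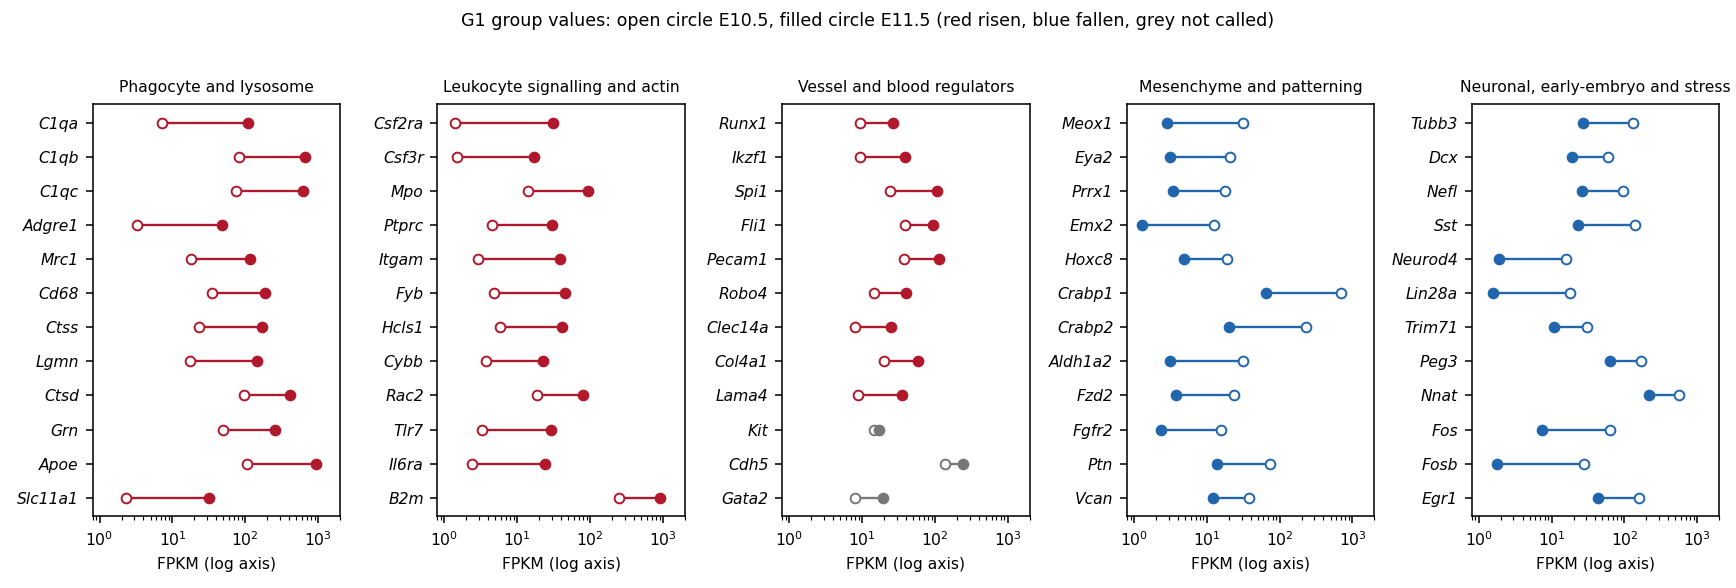
Authors' G1 group values (FPKM, log axes) of 60 genes in 5 panels by role, with an open circle for E10.5 and a filled circle for E11.5. Red marks genes risen, blue genes fallen and grey genes not called at q under 0.05. Kit, Cdh5 and Gata2 are the grey genes, and the genes were selected for display after their values were seen.

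The promoters of these genes were examined next, since many rose together. The window before each gene's start, 250 bases long, was taken from RefSeq (GRCm38.p6), and a window was matched for 287 of 385 risen, 127 of 186 fallen and 9711 of 12779 tested gene symbols. Both strands were searched. The core of the site bound by PU.1, the myeloid and lymphoid transcription factor encoded by Spi1, was searched as AGGAAGT. It occurred in 45 risen genes (15.7%), in 4 fallen genes (3.15%), in 8.67% of tested genes and in 8.8% of all 27025 windows. Spi1 itself had 24.4 FPKM at E10.5 against 108 FPKM at E11.5 and rose. The part of Spi1, or of other ETS-family factors such as Fli1 and Ets1, in the motif shares was not tested. The site was present in 6 of 22 oxidase and actin genes (27.3%) and 4 of 19 macrophage markers (21.1%), but in 2 of 31 lysosomal genes (6.45%), a share below that of tested genes. A match is a description of letters and not a bound site. The windows of 4 risen genes with the site are shown because they include secreted and granule proteins of high abundance. Capitals mark the PU.1 core, printed as ACTTCCT where it lies on the other strand, and each window reads 5′ to 3′ on the strand of the gene and ends at the base before its start. C1qb (chr4:136886201-136886450, minus strand) and C1qc (chr4:136892915-136893164, minus strand) encode chains of complement C1q. Lyz2 (chr10:117282273-117282522, minus strand) encodes lysozyme, and Mpo lies on the plus strand (chr11:87793534-87793783).
C1qb: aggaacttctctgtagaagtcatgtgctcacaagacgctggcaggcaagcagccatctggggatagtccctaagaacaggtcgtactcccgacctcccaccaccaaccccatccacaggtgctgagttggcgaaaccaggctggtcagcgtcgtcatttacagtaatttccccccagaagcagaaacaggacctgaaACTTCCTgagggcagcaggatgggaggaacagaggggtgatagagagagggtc
C1qc: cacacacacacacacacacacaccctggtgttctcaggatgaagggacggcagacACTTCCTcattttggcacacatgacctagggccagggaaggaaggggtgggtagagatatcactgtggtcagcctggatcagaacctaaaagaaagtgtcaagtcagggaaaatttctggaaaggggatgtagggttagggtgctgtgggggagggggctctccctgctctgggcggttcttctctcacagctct
Lyz2: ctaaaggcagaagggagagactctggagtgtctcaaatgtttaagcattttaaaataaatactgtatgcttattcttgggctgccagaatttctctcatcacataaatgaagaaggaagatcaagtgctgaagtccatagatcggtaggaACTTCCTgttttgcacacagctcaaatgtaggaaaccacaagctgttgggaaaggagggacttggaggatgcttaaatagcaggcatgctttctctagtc
Mpo: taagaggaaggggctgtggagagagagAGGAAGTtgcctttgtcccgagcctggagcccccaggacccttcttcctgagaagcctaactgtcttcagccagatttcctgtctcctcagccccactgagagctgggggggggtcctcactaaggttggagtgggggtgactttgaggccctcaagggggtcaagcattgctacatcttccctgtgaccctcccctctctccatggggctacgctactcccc
In C1qb the marked letters lie 53 to 47 bases before the start, in Lyz2 100 to 94, in C1qc 195 to 189 and in Mpo 223 to 217. The 4 genes rose from 81.1 to 653 FPKM (C1qb), from 74.2 to 623 FPKM (C1qc), from 60.4 to 297 FPKM (Lyz2) and from 13.9 to 94.8 FPKM (Mpo).

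A second motif was examined for the lysosomal genes. The core of the CLEAR element, which is bound by the lysosomal regulators TFEB and TFE3, was searched as TCACGTGA. It contains the E-box CACGTG and so every match of it is also an E-box match. It occurred in 4 of 31 lysosomal genes with a window (12.9%), in 2.09% of risen genes, in none of the 127 fallen genes, in 1.77% of tested genes and in 0.907% of all windows. The E-box occurred in 25.8% of lysosomal genes, in 9.75% of tested genes and in 28.6% of the 28 stress and immediate early genes with a window, so a high share was not particular to the lysosomal list. Ctsd is shown as the most abundant of the named lysosomal proteases (chr7:142387828-142388077, minus strand), with the CLEAR core in capitals, 99 to 92 bases before the start.
Ctsd: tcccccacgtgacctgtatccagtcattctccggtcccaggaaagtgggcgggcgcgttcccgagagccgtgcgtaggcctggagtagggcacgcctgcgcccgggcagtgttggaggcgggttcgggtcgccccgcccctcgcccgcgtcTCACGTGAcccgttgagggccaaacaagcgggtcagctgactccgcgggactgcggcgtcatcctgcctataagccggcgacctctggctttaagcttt
The other motifs searched, with their share in risen, fallen, tested and all windows, were as follows. The RUNX site TGTGGTT was in 5.23%, 0.787%, 3.73% and 5.08%. For the GATA site AGATAA the shares were 8.71%, 3.15%, 7.17% and 11.4%. For the AP-1 site TGAGTCA they were 5.23%, 3.15%, 3.76% and 5.16%, and for the core of the Maf recognition element, TGCTGA, 20.6%, 21.3%, 15.2% and 18%. The cyclic AMP element TGACGTCA was in 0.348% of risen, 2.36% of fallen, 3.14% of tested and 1.77% of all windows. The CArG box of serum response factor was in 2.79%, 4.72%, 1.4% and 1.62%. The E-box shares were 7.32%, 7.09%, 9.75% and 6.86%, those of the GC box GGGCGG 54%, 57.5%, 64.3% and 35.4%, and those of TATAAA 10.1%, 11%, 7.89% and 14.3%. Shares were 2.36% or lower in risen and fallen windows for the C/EBP palindrome TTGCGCAA, the interferon element, the E2F site TTTGGCGC, the posterior Hox site TGATTTAT, the Sox site ACAATGG, the partial REST site TTCAGCACC and the retinoic acid element (direct repeat). In tested windows these 7 were in 0.299%, 0.227%, 0.958%, 0.463%, 2.12%, 0.412% and 0.0206%, and in all windows in 0.185%, 0.233%, 0.485%, 0.995%, 3.46%, 0.348% and 0.0333%, in the same order. Base composition moved with the calls. The median window held 9 CpG in risen genes, 13 in fallen genes, 16 in tested genes and 4 in macrophage markers, and the part of composition in the motif shares was not tested.

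**Figure D3:**
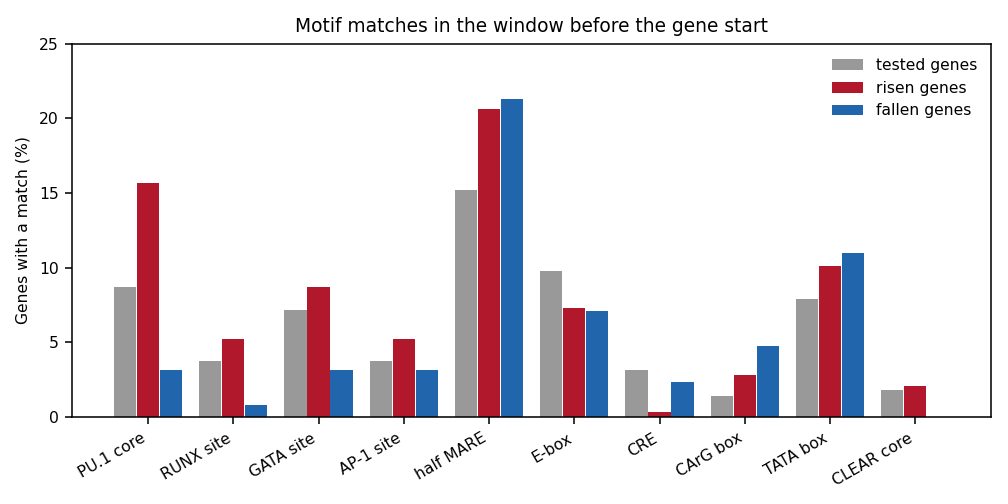
Share of genes (%) with at least 1 match of each motif, on either strand, in the window before the gene start, for 9711 tested (grey), 287 risen (red) and 127 fallen (blue) genes. The PU.1 core is at 15.7% in risen, 3.15% in fallen and 8.67% in tested genes.

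Regulators of blood formation were mixed in direction. Of 38 stem and progenitor regulators 4 rose and 1 fell, with 22 higher and 16 lower and a median log2 fold of 0.14. The 4 that rose were Runx1, Spi1, Ikzf1 and Fli1. Runx1, needed for the step from haemogenic endothelium to blood, lies on chromosome 16 (92601466 to 92826074) and rose 2.85-fold, from 9.46 to 27 FPKM. Ikzf1, a zinc finger factor of lymphoid and myeloid precursors, rose from 9.26 to 38.6 FPKM. Fli1, an ETS factor of endothelium and blood, rose 2.41-fold to 93.4 FPKM. Gata2 had 8.01 FPKM at E10.5 against 19.6 FPKM at E11.5 and was not called.

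Endothelial genes were moderately higher. Of 48 tested, 7 rose (14.6%, against 3% of all tested genes), none fell and 40 were higher, with a median log2 fold of 0.79. Robo4, a guidance receptor of vessels, rose from 14.8 to 39.8 FPKM, and Clec14a, a surface lectin of endothelium, from 8.13 to 25.2 FPKM. Ets1 rose 2.43-fold and Adgrf5 2.62-fold. Lyve1, a hyaluronan receptor of lymphatic endothelium that macrophages also make, had the highest fold of the list, 8.25. Cdh5, the junction protein VE-cadherin, was the most abundant of those named, with 137 and 244 FPKM, and was not called. Of 24 precursor surface markers 6 rose (25%) and 23 were higher. Cd44, a hyaluronan receptor, rose from 10.3 to 37.1 FPKM, and Ly6e rose 2.98-fold from 75.3 FPKM.

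Matrix genes changed in both directions. Of 46 tested, 5 rose (10.9%, against 3% of all tested genes) and 8 fell (17.4%, against 1.45%), with a median log2 fold of -0.78. The 5 that rose were Col4a1, Col4a2, Lama4, Lamc1 and Bgn. Col4a1 and Col4a2, the chains of collagen IV, are neighbours on chromosome 8, at 11198423 to 11312826 and 11312829 to 11449287. They rose 2.90-fold, to 58.5 FPKM, and 3.12-fold, to 88.3 FPKM. Lamc1 and Lama4, laminin chains of which Lama4 was chosen after its values were seen, rose from 28.0 to 59.4 and from 8.80 to 35.5 FPKM. Bgn, a small proteoglycan, rose 2.26-fold. The falling genes included Mdk and Ptn, related heparin-binding growth factors, at 661 and 293 FPKM and at 73.6 and 14 FPKM. Gpc3, a cell-surface proteoglycan of the embryo, fell 4.43-fold, from 106 to 24.0 FPKM. Col3a1 and Vcan, a fibrillar collagen and a large proteoglycan chosen after their values were seen, fell from 25.4 to 7.71 and from 38 to 12 FPKM. Of 35 genes of the BMP and TGF-beta pathways 2 rose (5.71%, against 3% of all tested genes) and 1 fell (2.86%, against 1.45%), counts too small to say anything about the pathways. Tgfb1, the ligand, rose from 32.4 to 113 FPKM, and its receptor Tgfbr2 rose 2.73-fold to 48.5 FPKM. Bmpr1a, a receptor of bone morphogenetic proteins, fell 2.93-fold, from 27.2 to 9.31 FPKM.

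Retinoic acid is made from vitamin A by retinaldehyde dehydrogenases, carried in the cell by binding proteins and used to pattern the trunk. Of 16 genes of this pathway 4 fell (25%, against 1.45% of all tested genes) and 1 rose (6.25%, against 3%). In the list 11 were lower and 5 higher, with a median log2 fold of -0.24. Aldh1a2, the main synthetic enzyme of the trunk on chromosome 9 (71215789 to 71296243), fell from 31.0 to 3.08 FPKM (10.1-fold). Aldh1a1, another such enzyme, had 3.76 FPKM at E10.5 and was listed at 0 at E11.5. Of the binding proteins, Crabp1 fell from 698 to 64.3 FPKM and Crabp2 (chromosome 3, 87948693 to 87953372) fell from 232 to 20.2 FPKM. Dhrs3, which reduces retinaldehyde back to retinol and so opposes synthesis, rose 4.92-fold, from 15.9 to 78.2 FPKM.

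Of 35 Wnt genes 6 fell (17.1%, against 1.45% of all tested genes), none rose and 30 were lower. The receptors Fzd2, Fzd3 and Fzd7 fell from 23.3 to 3.79, from 28.6 to 8.06 and from 32.9 to 7.98 FPKM. Sfrp1, a secreted antagonist of Wnt proteins, fell 3.40-fold. The ligands Wnt2 and Wnt9b had 4.21 and 0.967 FPKM at E10.5 and were listed at 0 at E11.5. Of 42 genes for mesenchymal surface proteins and signalling 9 fell (21.4%), none rose and 39 were lower. Fgfr2, a fibroblast growth factor receptor, fell 6.72-fold, from 15.9 to 2.36 FPKM. Gas1, a co-receptor of hedgehog proteins, fell 6.62-fold. Epha4, an ephrin receptor, fell from 15.4 to 3.83 FPKM and Ednra, an endothelin receptor, from 18.2 to 5.32 FPKM. Igfbp5, which binds insulin-like growth factors, fell 2.95-fold to 20.5 FPKM.

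Transcription factors of position and of mesoderm were lower as well. Of 40 factors of somite and limb mesenchyme 5 fell (12.5%, against 1.45% of all tested genes). None rose and 36 were lower (median log2 fold -1.66). Meox1, a somite factor on chromosome 11 (101877510 to 101894354), fell from 31.7 to 2.86 FPKM (11.1-fold). Eya2, a transcriptional co-activator of muscle and ear precursors, fell 6.48-fold, from 20.5 to 3.17 FPKM. Prrx1 fell from 17.9 to 3.46 FPKM, and Alx1 was listed at 0 at E11.5 against 1.93 FPKM. Of 23 urogenital ridge factors 3 fell (13%). Emx2, needed for kidney and gonad, fell 9.72-fold, from 12.6 to 1.29 FPKM. Nr5a1, a regulator of gonad and adrenal, was listed at 0 at E11.5 against 1.31 FPKM. Of 32 Hox genes 3 fell (9.38%), none rose and 29 were lower. The 3 were Hoxc8, Hoxc5 and Hoxc4, which are consecutive among the called genes on chromosome 15 (102990539 to 103036852). They had 19.1, 8.70 and 17.8 FPKM at E10.5 and 4.82, 1.79 and 3.46 FPKM at E11.5. Neighbouring Hox genes overlap in their transcripts, and the value of each is uncertain. Over the same samples the 6 mesenchymal markers moved with all of these groups, each lower at E11.5, and the 4 urogenital markers summed to 30.8 and 11 FPKM. Of these 4, Emx2 and Osr1 were lower at E11.5, while Lhx9, with 2.04 and 3.79 FPKM, and Wt1, with 2.85 and 2.97 FPKM, were not. Both marker lists share genes with these groups, among them Meox1, Prrx1 and Emx2, so they are not separate measures. The part of both marker lists was not tested.

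Neuronal genes made up a further group. Of 55 tested, 11 fell (20%, against 1.45% of all tested genes), none rose, and 50 were lower. Before adjustment 29 had p under 0.05, by the authors' deposited table. Tubb3, a neuronal tubulin, had 129 FPKM at E10.5 against 26.7 FPKM at E11.5. Nefl, a neurofilament subunit on chromosome 14 (68083884 to 68087737), fell from 96.7 to 25.8 FPKM (3.75-fold). Elavl4, an RNA-binding protein of neurons, fell 4.93-fold. The basic helix-loop-helix factors Nhlh1 and Nhlh2 fell 5.09-fold and 7.95-fold, to 5.89 and 2.09 FPKM. Sox11, a factor of neural and mesenchymal precursors, fell 2.47-fold, from 126 to 51.0 FPKM. Sst, which encodes the neuropeptide somatostatin, fell 6.09-fold, from 142 to 23.3 FPKM. These levels are those of the sorted cell samples, in which all 5 neuronal markers were lower at E11.5. The markers share genes with this list, among them Tubb3 and Dcx, and are not a separate measure.

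Genes of early embryonic cells, imprinted genes and immediate early genes were lower in smaller numbers. Of 23 genes of the axis of Lin28 and the let-7 miRNAs 3 fell (13%, against 1.45% of all tested genes). Lin28a, an RNA-binding protein that blocks let-7 processing, lies on chromosome 4 (134003330 to 134018816) and fell 11.1-fold, from 17.7 to 1.59 FPKM. Trim71, a let-7 target, fell from 30.7 to 10.7 FPKM, and Prtg, a receptor of the early embryo, fell 4.86-fold. Of 29 imprinted genes, expressed from 1 parental copy, 4 fell (13.8%) and none rose. Nnat had 556 and 215 FPKM, Cdkn1c, a cyclin-dependent kinase inhibitor, had 336 and 123 FPKM, Peg3 had 171 and 63.4 FPKM and Dlk1, a Notch-related surface protein, had 28.1 and 7.84 FPKM. The immediate early and stress list had 4 of 35 members fallen (11.4%) and 1 risen (2.86%, against 3% of all tested genes). Fos and Fosb, subunits of AP-1, fell 8.49-fold and 15.8-fold, to 7.35 and 1.76 FPKM. Egr1 fell from 156 to 42.8 FPKM and Zfp36, which destabilises messages of cytokines, fell 2.25-fold. Dusp6, a phosphatase of ERK, was the member that rose, from 29.4 to 64.9 FPKM.

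The largest falls of genes of at least 5 FPKM were led by Tmem132c, a membrane protein gene on chromosome 5 (127241826 to 127565790), which fell 19.4-fold, from 6.26 to 0.322 FPKM. Rhbdl3, a rhomboid-like protein gene, fell 19.2-fold, from 6.80 to 0.353 FPKM. Mok, a protein kinase gene, fell 15-fold, and Mettl1, which methylates transfer RNA, fell 12.3-fold, from 25.8 to 2.10 FPKM. Genes listed at 0 at an age carry no fold. There were 36 such genes among the rises, with Stfa2l1 (15.9 FPKM at E11.5), S100a8 (13.3 FPKM) and Clec4n (9.07 FPKM) the most abundant named, and 30 among the falls, with Cldn8 (6.15 FPKM at E10.5), Calb1 (5.37 FPKM) and Fam183b (5.09 FPKM). A value of 0 gives no limit here because the depth is unknown.

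Calls by Cuffdiff's q were also counted in housekeeping groups, against 4.45% of all tested genes called. In the smaller of these lists 0 or 1 call is not a result about the list. None of 81 cytosolic ribosomal protein genes was called and 0 had p under 0.05 unadjusted, by the authors' deposited table. Their median log2 fold was -0.16. Of 80 oxidative phosphorylation genes Ndufs3, a subunit of complex I, rose from 34.3 to 106 FPKM, and 3 had an unadjusted p under 0.05. None of 32 S-phase genes was called, with 4 at an unadjusted p under 0.05, and Pcna, the sliding clamp of replication, had 334 and 270.2 FPKM. Of 32 genes of G2 and mitosis, Mki67 alone was called, and it rose from 24.8 to 68.6 FPKM. None of 54 replication-dependent histone genes was called, with 3 at an unadjusted p under 0.05, although 43 were higher. Reads shared between histone copies make these values uncertain. None of 13 DNA methylation genes (2 at an unadjusted p under 0.05) and none of 18 Bcl2 family genes (0) was called. Of 23 glycolysis genes Ldhb, a lactate dehydrogenase chain, fell from 106 to 35.3 FPKM. Txnip, a brake on glucose uptake, rose from 17.5 to 56.4 FPKM. Gmnn and Cdt1, mouse counterparts of the proteins whose fragments the Fucci reporters carry, had 33.8 and 22.3 FPKM and 31.3 and 24.7 FPKM and were not called. Xist, the RNA of the inactive X chromosome, rose from 5.59 to 34.2 FPKM in G1 cells and was called in S/G2/M cells too. Of 5 tested sex-linked genes the other 4 were lower at E11.5 in both phases, without a call. The sex of the embryos is not given by the labels, and its part in these values was not tested.

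**Figure D4:**
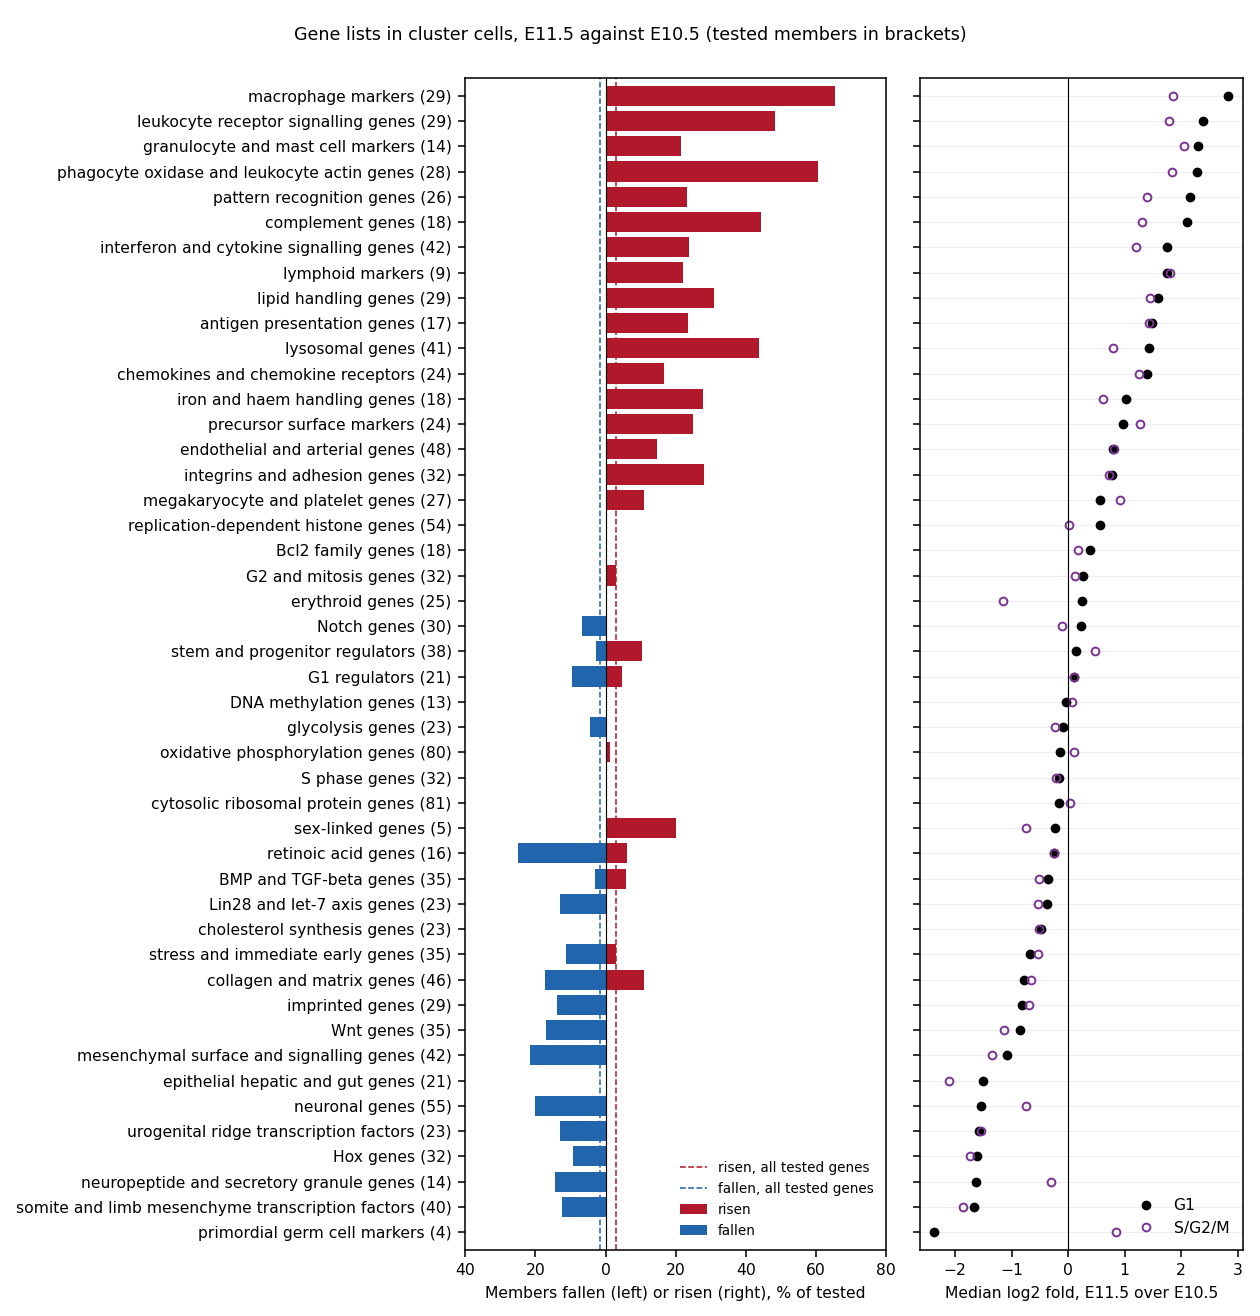
Left, tested members of each gene list that fell (blue, to the left) or rose (red, to the right), in percent, with dashed lines at the 1.45% and 3% of all tested genes. Right, the median log2 fold of each list, E11.5 over E10.5, in G1 cells (filled circles) and S/G2/M cells (open circles), with lists ordered by the G1 median and the number of tested members in brackets.

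Called genes lay within 50 kb of the next called gene in 21 runs, and genes not called may lie between them. No such count was made for all tested genes, so clustering cannot be read from it. These runs held 44 of the 571 called genes with an unshared name and a position. In 16 runs every gene rose, in 2 every gene fell and in 3 the directions differed. The longest had 3 genes. One was the C1q locus on chromosome 4 (136880145 to 136898844), where C1qb, C1qc and C1qa rose 8.05-fold, 8.40-fold and 15.2-fold. The other was the Hoxc run already described. Chrna3 and Chrnb4, subunits of a neuronal acetylcholine receptor chosen after their values were seen, formed the other falling run. Rac2 and Cyth4, Ifnar2 and Il10rb, Aif1 and Lst1, and Vav1 and Adgre1 were rising pairs, named after their values were seen.

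The same ages were compared in S/G2/M cells, in 6 samples none of which entered the G1 comparison. There 520 of 12768 tested genes changed (4.07%), 273 upward (2.14%) and 247 downward (1.93%). Of 12190 genes tested in both phases, 365 had risen in G1 cells, and 137 of these also rose in S/G2/M cells. That is 37.5% of the G1 rises and 51.5% of the 266 S/G2/M rises. Of 165 that had fallen in G1 cells, 89 also fell in S/G2/M cells, 53.9% of the G1 falls and 38.9% of the 229 S/G2/M falls. Direction was shared more widely than calls. Of the 365 risen genes 97.3% were higher in S/G2/M cells, against 52.4% of all genes tested, and of the 165 fallen genes 97% were lower, against 47.6%. The median log2 fold of the risen genes was 2.11 in G1 cells and 1.35 in S/G2/M cells, and that of the fallen genes -2.11 and -1.79. The larger size in G1 cells is fixed in part by choosing genes called there, and whether the age difference differed between phases could not be tested without values per sample.

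The gene groups were set side by side in the 2 phases. Of the 17 oxidase and actin genes risen in G1 cells 12 also rose in S/G2/M cells. Arhgdib, for example, had 147 FPKM at E10.5 against 599.9 FPKM at E11.5 there, and Rac2 had 17.5 and 77.0 FPKM. Of the 18 lysosomal genes 9 rose in both, and Lamp1 had 121 and 166 FPKM in S/G2/M cells without a call. None of the 5 iron and haem handling genes was called by Cuffdiff's q in S/G2/M cells, although all 5 had higher values at E11.5 there, as did 15 of the 18 tested members. Slc11a1 was 5.86-fold, Slc40a1 3.09-fold, Trf 2.12-fold, Blvrb 1.58-fold and Hmox1 1.54-fold higher, without a call. The macrophage marker sum was lower in S/G2/M cells at both ages, 128 FPKM at E10.5 against 411 FPKM at E11.5. All 3 genes of the Lin28 axis fell in both phases, as did Crabp1, Crabp2 and Aldh1a2, and the 5 Wnt genes tested in both. Lin28a had 26.4 and 2.77 FPKM in S/G2/M cells, and Crabp2 had 224 and 23.3 FPKM.

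Neuronal genes were compared in the same way. Of the 11 that fell in G1 cells 3 fell in S/G2/M cells, and 9 had a lower value at E11.5 there. Over the list 33 of 51 tested genes were lower in S/G2/M cells, with a median log2 fold of -0.74. Tubb3 had 25.6 and 15.4 FPKM, Elavl4 had 7.36 and 2.78 FPKM, and Nhlh1 had 18.6 and 6.08 FPKM in S/G2/M cells, none of them called. The 2 with a higher value there were Nefl and Dcx. Nefl had 14.3 FPKM at E10.5 against 23.7 FPKM at E11.5 in S/G2/M cells, and Dcx had 7.24 and 9.22 FPKM. Sst, of the neuropeptide list, had 4.79 and 27.7 FPKM there. None of these was called in S/G2/M cells. For Nefl, Dcx and Sst, as for Tubb3, Elavl4 and Nhlh1, the E10.5 value in G1 cells was higher than the other 3 group values. The sum of the 5 neuronal markers was 279.6 FPKM in G1 cells at E10.5, 89.3 FPKM in G1 cells at E11.5, and 53.2 and 44.9 FPKM in S/G2/M cells. Mettl1 had 11.3 FPKM at E10.5 in S/G2/M cells and was 1.01-fold higher at E11.5, against its 12.3-fold fall in G1 cells. The erythroid marker sum was 19363 FPKM at E10.5 against 3196 FPKM at E11.5 in S/G2/M cells, and 4 of 24 erythroid genes fell there. Hbb-bh1, an embryonic globin gene, had 3156 and 289 FPKM in S/G2/M cells and fell, and it had 2296 and 997 FPKM in G1 cells without a call. The single name called in opposite directions was a joint entry of Glul, which encodes glutamine synthetase, and a miRNA gene, Mir8114, and it was named after its values were seen. In G1 cells it rose from 58.5 to 147 FPKM, and in S/G2/M cells it fell from 188 to 72.1 FPKM.

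**Figure D5:**
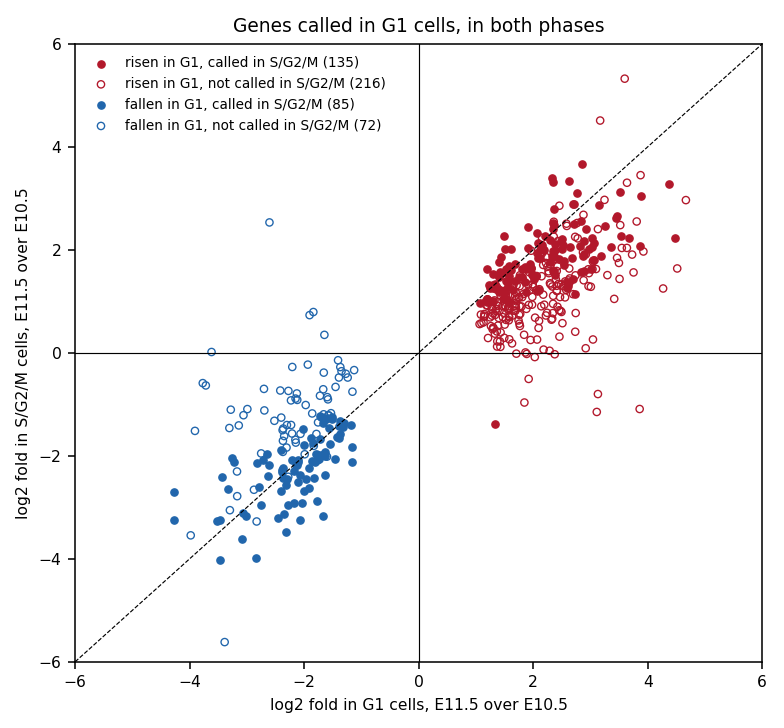
log2 fold of E11.5 over E10.5 in G1 cells (horizontal) and S/G2/M cells (vertical) for genes called in G1 cells and above 0 in all 4 groups. Red points rose and blue points fell in G1 cells, filled points were also called in S/G2/M cells (135 risen and 85 fallen) and open points were not (216 and 72), and the dashed line marks equal folds. Most points lie on the side of the horizontal zero line that G1 cells gave.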

How the data were processed

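RNA from sorted cluster cells was measured by sequencing in 12 samples, 3 for each age and phase. The submitters' processing notes list CASAVA 1.4, TopHat, Cuffdiff and the build mm10 without saying what each did, whereas the labels' protocols name bowtie 0.12.2 and mm8. Strand, read totals and annotation are not given in the sources used here. Of 22553 gene symbols found in the GRCm38 annotation, 22439 overlapped their deposited locus, and 7224 starts equalled the reference after adding 1 (697 without), so mm10 coordinates are printed counting from 1. The authors deposited tables of FPKM, 1 value per gene and group, with the p-value and q-value of Cuffdiff's gene test, per the file headers. S/G2/M cells are called G2 in the tables. Of 6 such files, 4 were used, those of age in each phase and, as a check of scaling, those of phase at each age.

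Calls were taken at q under 0.05 in the authors' deposited tables, and the smallest p there, 5e-05, was shared by 237 genes. Folds were computed here as the ratio of FPKM values without a pseudocount, and genes listed at 0 were given none. The planned count tests were not possible without counts. The code for folds and calls was run on artificial input of 12802 genes for the G1 comparison by age. It returned 200 of the 200 genes set as changed. Cuffdiff was not run on that input, and the accuracy of the authors' calls was not tested. The 46 gene lists are descriptions, without a set test. Members and lists were chosen with earlier results of these data known, and the motifs and printed promoters after values were seen. The rule named the 15 largest rises and falls of at least 5 FPKM, up to 3 genes listed at 0 per direction, up to 8 called members per list, or the 3 most abundant of a list without calls and 12 fixed genes; names that join genes were left out, and not every gene selected is printed, since some are withheld and not reported here. Genes named outside it, other than the cell type markers, are marked as chosen after their values were seen. Alternatives were q under 0.01 and 0.085, a log2 fold of at least 1, at least 1 or 5 FPKM, a pseudocount of 1 FPKM, median scaling, genes at 0 left out, joined names left out, and the authors' phase tables. Calculations ran in Python 3.11.15 with pandas 2.3.3 and numpy 2.4.6, and plots were drawn with matplotlib 3.10.9.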

Additional observations from a re-analysis of the deposited data

How the results depend on the processing

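At q under 0.01 in the authors' deposited table, 301 genes changed, with 201 risen and 100 fallen. The other alternatives for these counts stayed within 1.5 times the main counts. The threshold of q under 0.085 gave 773 (510 and 263). At least 5 FPKM gave 509 (355 and 154), and leaving out genes listed at 0 gave 511 (353 and 158). A log2 fold of at least 1 could not change the counts. Every called fold was already at least 2.09, and genes listed at 0 were kept. Of 205 named genes, 64 missed q under 0.01. Reversal of a called gene was not a test here. A pseudocount cannot change a direction, and median scaling shifted folds too little to do so. At that threshold 23 of 92 list counts moved by over 1.5 times. Examples are oxidase and actin genes (10 risen), receptor signalling (9), interferon and cytokine signalling (6), iron and haem (2), endothelial genes (1), neuronal genes (7 fallen), mesenchymal surface (5) and Hox genes (0). A pseudocount of 1 FPKM moved 21 named folds, such as Plcb2 to a log2 fold of 2.63 and Csf2ra to 3.73, and the median log2 fold of complement genes to 1.36. Median scaling shifted all log2 folds by 0.03. The authors' phase tables hold values of the same G1 groups, and the largest log2 gap of a called gene to them was 0.105. All 511 called genes above 0 at both ages kept their direction there, which is a check of scaling and not an independent one. Leaving out a sample could not be done because no table holds values per sample. No paired analysis was possible because the columns carry 1 value per group and no replicate numbers. The depth is unknown, so no limit can be set for genes listed at 0.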
